A study of Homo sapiens with 6 samples.

Results

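The ubiquitin conjugation and deubiquitination genes described here are 130 of the 14884 genes with a named row on the array. The rule that picks them reads gene symbols and no signal, although the group was proposed with earlier results of these data known. They occupy 134 of the 16098 named rows. The group holds 27 UBE2 genes, 4 UBE3 genes, 49 USP genes, 33 FBXO genes, 15 FBXL genes, and STAMBP with its paralog STAMBPL1. USP15, USP18 and antisense transcripts were left out by the rule, which also excludes UBE2C, a gene without a named row here. RefSeq lists 123 of the 130 as protein coding, 6 as transcribed pseudogenes (UBE2DNL, UBE2MP1, UBE2NL, UBE2Q2P1, USP17L9P and USP32P1) and USP27X-DT as a long non-coding RNA. USP6NL matches the USP prefix but is known as a regulator of RAB GTPases and not as a deubiquitinase.

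Gene expression was measured in A549, a human lung cancer cell line, 48 hours after transfection of a control siRNA (siNC in the labels), of MYEOV siRNA 1 (siMYEOV #1) or of MYEOV siRNA 2 (siMYEOV #2), on 2 Affymetrix arrays per group. The cells of all 3 groups received an siRNA by lipid transfection, and no untransfected cells were measured. No siRNA sequence stands in the labels. Whether the arrays of a group are separate cultures is not stated either, and the spread behind each p-value may therefore be technical. Values are log2 signals, so a difference of 1 is a 2-fold change, and n = 2 arrays per group throughout.

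Ubiquitin is attached to proteins by a relay: an activating enzyme charges a conjugating enzyme (the UBE2 family), and a ligase brings the charged conjugating enzyme to a substrate. UBE3 genes encode ligases of the HECT type, which take the ubiquitin onto their own cysteine, except UBE3D, whose assignment is less settled. F-box proteins (FBXO and FBXL) are the substrate-binding subunits of SKP1-cullin ligases. USP enzymes are cysteine proteases that remove ubiquitin, and STAMBP and STAMBPL1 are zinc metalloproteases that trim ubiquitin chains at endosomes.

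For MYEOV, the targeted gene, the controls read 6.20 and 6.50, the siRNA 1 arrays 5.34 and 5.19, and the siRNA 2 arrays 5.23 and 4.70, so all 4 arrays with a MYEOV siRNA lay below both controls. The log2 change was -1.09 ± 0.18 (SE) with siRNA 1 and -1.39 ± 0.18 with siRNA 2. Those 4 arrays also lay below 5.45, the minimum mean signal for testing described below, so MYEOV passed it only through its controls. Of 5 epithelial markers, 4 had a named row. KRT18, a keratin of simple epithelia, ranged from 11.79 to 12.09 and EPCAM, an epithelial adhesion protein, from 6.92 to 7.27 over the 6 arrays, while KRT8 and KRT19 were at or above 6.45 and 5.30 in every array. Of 7 markers of leukocytes, fibroblasts and endothelium, 3 had a named row, and CD14, PECAM1 and VWF stayed at or below 4.66 in every array. The median standard deviation between replicate arrays was 0.0664 for the tested members, from 0.00675 for UBE3A to 0.238 for FBXO48, and 0.0819 for all genes tested.

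Dim genes were left out of the tests by a minimum mean signal of 5.45, set at the midpoint of the ranked means of named genes, and 91 of the 130 members reached it. These were 19 UBE2, 3 UBE3, 32 USP, 25 FBXO and 10 FBXL genes and both STAMBP genes. For 4 of the 91, namely STAMBP, UBE2L6, UBE2B and FBXO36, the mean of at least 1 group lay below that level, so they passed through their higher groups. A gene was called when limma gave a Benjamini-Hochberg adjusted p under 0.05 over all 7442 genes tested. An exact permutation of 2 arrays against 2 cannot go below 0.333, so calls rest on limma's sharing of the spread between genes.

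With siRNA 1, UBE3C and STAMBP fell by more than 2-fold, as did 0.188% of all genes tested, FBXO22 fell less, and FBXO7 and USP14 rose. STAMBP is named by the rule and passed the filter through its other groups, so nothing is read from the count of 2. With siRNA 2, 8 of the 32 tested USP genes were called, against 6.83% of all genes tested, USP37, USP53, USP47, USP46 and USP42 lower and USP14, USP12 and USP38 higher, together with FBXO11, UBE2V2 and UBE2L6, which fell, and UBE2A and FBXO7, which rose. Of the 8 USP calls, those of USP38 and USP42 were lost without any single array and that of USP53 without 5 of the 6. USP14 and FBXO7 were called higher with both siRNAs and no member was called lower with both or in opposite directions. The share of all genes called with both is not given, and both comparisons use the same control arrays. Nothing is therefore read from this overlap. The USP14 call with siRNA 1 was lost without any single control or siRNA 1 array. That of FBXO7 with siRNA 2 was lost without control replicate 2 or siRNA 2 replicate 2. The calls of FBXO22 with siRNA 1 and UBE2L6 with siRNA 2 were lost on leaving out each array in turn. With siRNA 2, 0 members were called at least 2-fold lower by limma (0.417% of all genes). The plot of log2 fold changes by class shows each of these genes against the members of its class that were not called.

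**Figure D1:**
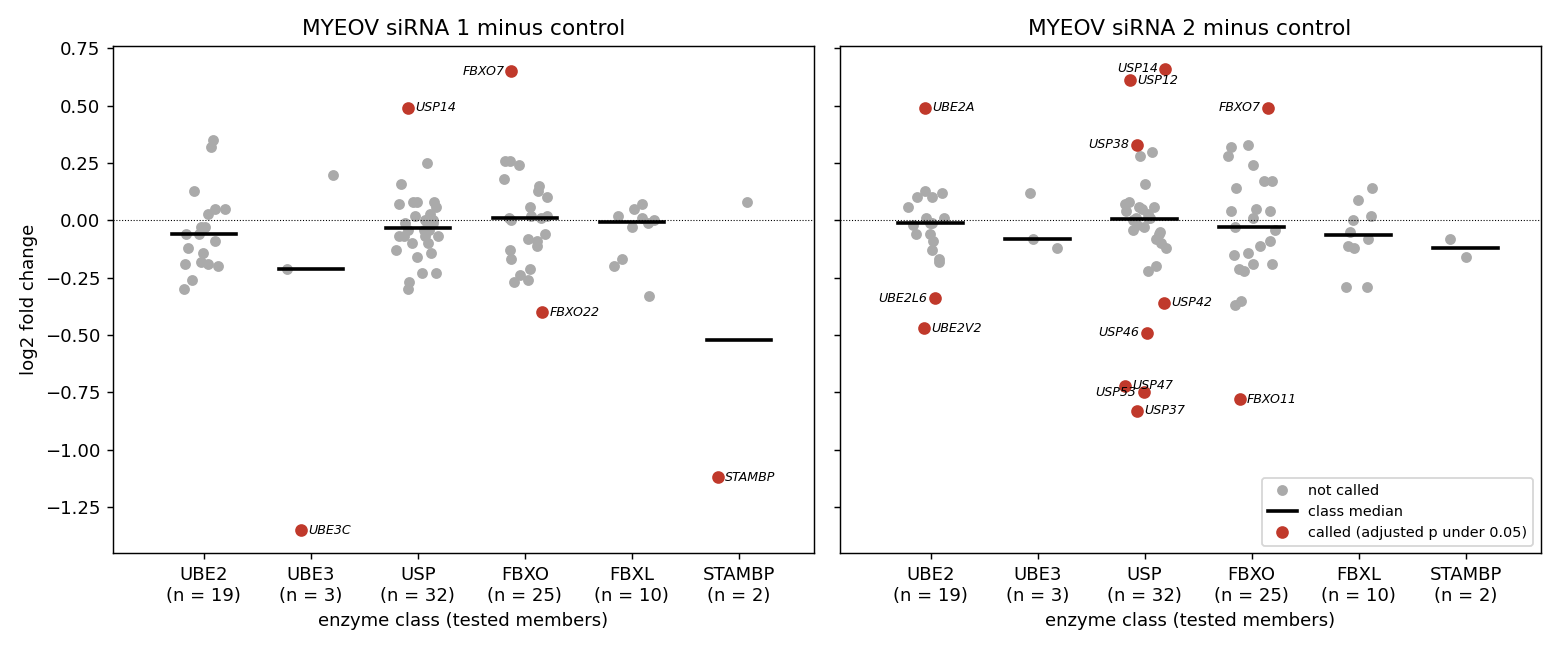
Log2 fold change (vertical axis) of each of the 91 tested members in 6 enzyme classes (horizontal axis) with MYEOV siRNA 1 (left) and MYEOV siRNA 2 (right) against control. Red points with names are genes called at adjusted p under 0.05, grey points are not called, and bars are class medians; UBE3C at -1.35 and STAMBP at -1.12 stand lowest on the left, and 8 USP genes between -0.83 and 0.66 are called on the right.

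The medians of the UBE2, USP, FBXO and FBXL classes lay within 0.07 of 0 with either siRNA, but with the filter raised to the 75th percentile the FBXO median was -0.17 with siRNA 1 and -0.14 with siRNA 2. With siRNA 1 the median log2 change was -0.06 for the UBE2 genes, -0.04 for USP, 0.01 for FBXO and 0.00 for FBXL, against 0.00 for all genes tested. With siRNA 2 the medians were -0.01 for UBE2, 0.00 for USP, -0.03 for FBXO and -0.07 for FBXL, against 0.00 for all genes. Between the siRNAs (siRNA 1 minus siRNA 2) they were -0.07, -0.01, 0.03 and 0.03. Array by array, with each gene centred on its own mean, the median over all 91 members stayed between -0.02 and 0.03. The 3 UBE3 genes and the 2 STAMBP genes are too few for a median and are given singly.

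Called members made up 5 of 91 with siRNA 1, 2 higher and 3 lower (5.49%, against 4.66% of all genes tested, of which 2.28% higher and 2.38% lower), which is near the background. With siRNA 2 they made up 13 of 91, 5 higher and 8 lower (14.3%, against 6.83%, of which 2.59% higher and 4.23% lower). For siRNA 1 against siRNA 2 they made up 14 of 91, 6 higher and 8 lower with siRNA 1 (15.4%, against 9.15%, of which 5.37% higher and 3.78% lower). UBE3C and STAMBP were the 2 members at least 2-fold lower there (0.282% of all genes). STAMBP is named by the rule and passed the filter through its other groups, so nothing is read from that count either. At an unadjusted limma p under 0.05 stood 26, 26 and 33 of the 91 members, or 28.6%, 28.6% and 36.3%, against 19.2%, 22.2% and 23.6% of all genes. Among USP genes, 1 of 32 was called with siRNA 1, 8 of 32 with siRNA 2 (25.0%) and 7 of 32 between the siRNAs (21.9%). No UBE2 gene was called with siRNA 1, where 6 of 19 had an unadjusted limma p under 0.05, while 3 of 19 were called with siRNA 2. FBXO genes gave 2 calls of 25 in each of the 3 comparisons. No FBXL gene was called against control by limma with either siRNA (2 of 10 had an unadjusted p under 0.05 with each), and 1 was called between the siRNAs. These shares were not tested against each other. Both control comparisons use the same 2 control arrays.

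UBE3C is a HECT ligase that binds the proteasome and extends ubiquitin chains on its substrates. Its controls read 9.39 and 9.39, the siRNA 1 arrays 8.03 and 8.06, and the siRNA 2 arrays 9.50 and 9.51. Only the siRNA 1 arrays were low, and the replicates of each group lay close together. UBE3C fell by 1.35 ± 0.06 (SE) with siRNA 1, a signal 60.7% lower (95% confidence interval -1.50 to -1.20, limma adjusted p = 0.000467), the third lowest change of the 7442 genes. With siRNA 2 the difference was 0.12 (interval -0.04 to 0.27, adjusted p = 0.357).

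The other tested UBE3 genes were not called with siRNA 1, although UBE3A was lower by a smaller amount. UBE3A, the ligase lost in Angelman syndrome, read 8.90 and 8.89 in controls, 8.68 and 8.69 with siRNA 1, and 8.82 and 8.82 with siRNA 2. Its difference with siRNA 1 was -0.21 ± 0.06 (SE, interval -0.36 to -0.06, limma adjusted p = 0.124), and the 3 groups did not overlap. UBE3B read 8.87 and 8.75, then 9.07 and 8.95, then 8.67 and 8.71 in the same order, and was not called against control (0.20 and -0.12, limma adjusted p = 0.225 and 0.431). UBE3D, at 4.89 to 5.23 over the 6 arrays, was below the filter and was not tested.

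STAMBP, the endosomal metalloprotease also known as AMSH, was likewise lowest in the siRNA 1 arrays. Its signal was 6.32 and 6.35 in controls, 5.13 and 5.31 with siRNA 1, and 6.21 and 6.31 with siRNA 2. It fell by 1.12 ± 0.08 (SE) with siRNA 1, 53.9% lower (interval -1.32 to -0.92, limma adjusted p = 0.00144), the eighth lowest of the 7442 changes. Its mean with siRNA 1, 5.22, lay below the filter level of 5.45, so STAMBP was tested only because of its higher groups. With siRNA 2 the difference was -0.08 (interval -0.28 to 0.12, adjusted p = 0.674). Its paralog STAMBPL1 read 7.67 and 7.59 in controls, 7.84 and 7.57 with siRNA 1, and 7.47 and 7.47 with siRNA 2. STAMBPL1 was not called with siRNA 1 (0.08, interval -0.15 to 0.30, limma adjusted p = 0.732) or with siRNA 2 (-0.16, adjusted p = 0.412).

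FBXO22, an F-box protein that directs KDM4 histone demethylases to degradation, read 8.27 and 8.21 in controls, 7.90 and 7.78 with siRNA 1, and 8.10 and 8.09 with siRNA 2. It fell by 0.40 ± 0.07 (SE) with siRNA 1 (limma adjusted p = 0.0334), whereas the difference with siRNA 2 was -0.14 (adjusted p = 0.321). A second row of FBXO22, at 5.50 and 5.76 in controls and 5.31 and 5.46 with siRNA 1, gave -0.24 ± 0.13 (SE, limma adjusted p = 0.366 when every row was tested). The call of FBXO22 was lost on leaving out each of the 6 arrays in turn (adjusted p from 0.0594 without either siRNA 2 array to 0.183 without siRNA 1 replicate 2), with the rows of the gene averaged (0.0730), with only the 2 groups fitted (0.0594) and with no filter (0.190), and over all alternatives its adjusted p ran from 0.00742 to 0.190. UBE3C and STAMBP were called under every alternative that tested them, 16 and 15 in number (highest limma adjusted p = 0.0181 and 0.0276). All alternatives refit the same 6 arrays or a part of them, so they add no independent support.

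FBXO7 and USP14 were the members called higher with both siRNAs. FBXO7, an F-box protein that binds the proteasome regulator PI31 and is mutated in a form of parkinsonism, read 8.41 and 8.36 in controls, 9.07 and 8.99 with siRNA 1, and 8.86 and 8.89 with siRNA 2. All 4 arrays with a MYEOV siRNA lay above both controls. It rose by 0.65 ± 0.07 (SE) with siRNA 1 (56.5% higher, limma adjusted p = 0.00454) and by 0.49 ± 0.07 with siRNA 2 (40.7% higher, adjusted p = 0.00766). USP14, the deubiquitinase bound to the proteasome, read 9.66 and 9.80 in controls, 10.18 and 10.26 with siRNA 1, and 10.39 and 10.40 with siRNA 2. It rose by 0.49 ± 0.08 (SE) with siRNA 1 (40.3% higher, limma adjusted p = 0.0188) and by 0.66 ± 0.08 with siRNA 2 (58.3% higher, adjusted p = 0.00346).

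The rises of FBXO7 and USP14 did not differ detectably between the siRNAs, with siRNA 1 minus siRNA 2 at 0.15 (interval -0.01 to 0.32) and -0.17 (interval -0.36 to 0.01), limma adjusted p = 0.235 and 0.230. For siRNA 1, the USP14 call was lost when either control array (limma adjusted p = 0.0892 and 0.0515 for replicates 1 and 2) or either siRNA 1 array was left out (0.0751 and 0.140, and 0.00170 to 0.140 over all alternatives). For siRNA 2, the FBXO7 call was lost without control replicate 2 or siRNA 2 replicate 2 (adjusted p = 0.0536 and 0.0570, and 0.00104 to 0.0816 over all alternatives). With no filter on dim genes, USP14 remained called with siRNA 2 (0.0420) and FBXO7 with neither siRNA (0.0625 and 0.0816). Leaving out any array of the control or siRNA 1 lowered the siRNA 1 count of called members. The share of all genes called in those fits is not given, so nothing about the members is read from that.

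The promoters of both genes are shown because they are the members called with both siRNAs, with that of UBE3C, called with siRNA 1 alone, beside them. Each sequence is the 250 bases before the RefSeq start of the gene in GRCh38.p14, on the plus strand: chr22:32474561-32474810 for FBXO7 (the more upstream of 2 starts), chr18:158307-158556 for USP14 and chr7:157138676-157138925 for UBE3C. Capitals mark matches, on either strand, to GGGCGG, the GC box core, and to TGACNNNGC, the core of the antioxidant response element. These motifs were chosen after the expression values were seen.
FBXO7: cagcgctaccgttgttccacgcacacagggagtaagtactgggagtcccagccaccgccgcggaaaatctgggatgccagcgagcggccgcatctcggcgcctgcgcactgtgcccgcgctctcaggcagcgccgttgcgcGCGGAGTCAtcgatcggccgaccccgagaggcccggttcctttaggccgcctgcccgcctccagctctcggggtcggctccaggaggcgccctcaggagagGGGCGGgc
USP14: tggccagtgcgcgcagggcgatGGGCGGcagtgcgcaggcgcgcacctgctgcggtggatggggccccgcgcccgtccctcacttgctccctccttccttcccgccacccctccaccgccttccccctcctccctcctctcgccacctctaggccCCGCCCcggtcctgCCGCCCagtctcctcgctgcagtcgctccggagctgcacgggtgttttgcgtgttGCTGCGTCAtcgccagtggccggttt
UBE3C: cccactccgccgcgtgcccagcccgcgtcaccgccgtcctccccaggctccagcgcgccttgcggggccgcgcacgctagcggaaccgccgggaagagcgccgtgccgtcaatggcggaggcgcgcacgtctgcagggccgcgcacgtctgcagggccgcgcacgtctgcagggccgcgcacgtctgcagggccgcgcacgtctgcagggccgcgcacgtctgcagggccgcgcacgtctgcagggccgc

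FBXO7 had 1 match to GGGCGG and 1 to TGACNNNGC, the latter beginning 109 bases before the start. USP14 had 3 matches to GGGCGG and 1 to TGACNNNGC, the latter 26 bases before the start. UBE3C had 0 matches to either. CCAAT and TATAAA, searched on both strands as well, had 0 matches in all 3 promoters and are held by 32% and 10.7% of the promoters in the table. Of the 35116 promoters in the RefSeq table, 42.6% hold GGGCGG, 10.9% hold TGACNNNGC and 5.18% hold both in the same 250 bases. A match describes the letters only. The share of the members holding each motif is not given, so nothing is read from the difference between these 3 promoters. Of the 130 members, 95 have an entry in that table, and STAMBP is not among them.

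With siRNA 2, the falls among the USP genes were those of USP37, USP53, USP47, USP46 and USP42. USP37, known for stabilising cyclin A, read 7.89 and 7.73 in controls, 7.62 and 7.40 with siRNA 1, and 6.91 and 7.05 with siRNA 2. It fell by 0.83 ± 0.10 (SE, 43.7% lower, limma adjusted p = 0.00445) with siRNA 2. The siRNA 1 arrays lay between the other groups, at -0.30 against control (adjusted p = 0.162).

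USP47, a deubiquitinase of DNA polymerase beta, read 9.93 and 9.90 in controls, 10.11 and 10.05 with siRNA 1, and 9.20 and 9.19 with siRNA 2. It fell by 0.72 ± 0.07 (SE, 39.4% lower, limma adjusted p = 0.00133) with siRNA 2 alone, and its siRNA 1 arrays lay above the controls without passing the test (0.16, adjusted p = 0.242). USP53, a USP family protein of tight junctions, read 8.39 and 8.09 in controls, 8.31 and 8.08 with siRNA 1, and 7.69 and 7.28 with siRNA 2. Replicate 1 was higher than replicate 2 in all 3 groups, and the fall was 0.75 ± 0.16 (SE, limma adjusted p = 0.0407).

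USP42, known to act on p53, read 7.73 and 7.67 in controls, 7.59 and 7.54 with siRNA 1, and 7.36 and 7.31 with siRNA 2, and fell by 0.36 ± 0.07 (SE, limma adjusted p = 0.0261). USP38 rose, at 8.36 and 8.42 with siRNA 2 against 8.03 and 8.09 in controls (0.33 ± 0.08 SE, limma adjusted p = 0.0487), and its siRNA 1 arrays, at 8.14 and 8.01, overlapped the controls. These are the smaller changes of the class that passed the test. USP25 was at 0.25 with siRNA 1 and 0.30 with siRNA 2 and was not called (limma adjusted p = 0.120 and 0.0588).

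USP1, USP12 and USP46 are deubiquitinases that share the activating cofactor WDR48, and USP12 and USP46 are close paralogs. Under siRNA 2 the latter moved in opposite directions. USP12 read 7.64 and 7.50 in controls, 7.59 and 7.41 with siRNA 1, and 8.29 and 8.07 with siRNA 2, a rise of 0.61 ± 0.11 (SE, 52.5% higher, limma adjusted p = 0.0191). USP46 read 7.10 and 7.14 in controls, 6.88 and 6.83 with siRNA 1, and 6.63 and 6.63 with siRNA 2, a fall of 0.49 ± 0.07 (SE, 29.0% lower, limma adjusted p = 0.00635). USP46 was below both controls with siRNA 1 as well, at -0.27, without passing the test (adjusted p = 0.0699). USP1, which acts on FANCD2 and PCNA, read 9.21 and 9.29 in controls and 9.51 and 9.55 with siRNA 2 (0.28, limma adjusted p = 0.0632).

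Among F-box genes, FBXO11, an adaptor that directs BCL6 to degradation, read 9.53 and 9.51 in controls, 9.57 and 9.59 with siRNA 1, and 8.67 and 8.81 with siRNA 2. It fell by 0.78 ± 0.07 (SE, 41.9% lower, limma adjusted p = 0.00162) with siRNA 2, and the difference with siRNA 1 was 0.06 (adjusted p = 0.733). FBXO5, an inhibitor of the anaphase-promoting complex, and FBXO36 were the next lowest with siRNA 2, at -0.37 and -0.35, and were not called (adjusted p = 0.0813 and 0.0757). FBXO21 and FBXO4 were the next highest after FBXO7, at 0.33 and 0.32, and were not called (limma adjusted p = 0.0596 and 0.109). Of the FBXL genes, FBXL18 and FBXL19 were the lowest with siRNA 2, each at -0.29 (limma adjusted p = 0.113 and 0.0931). FBXL20 and FBXL17 were the highest there, at 0.14 and 0.09 (0.466 and 0.598). With siRNA 1, FBXO28 was the lowest FBXO gene after FBXO22, at -0.27 (0.119), and FBXO25 the highest after FBXO7, at 0.26 (0.280). FBXL17 and FBXL19 were the lowest FBXL genes with siRNA 1, at -0.33 and -0.20 (0.0746 and 0.243). The highest were FBXL20 and FBXL12, at 0.07 and 0.05 (limma adjusted p = 0.774 and 0.794).

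Conjugating enzymes changed in both directions with siRNA 2. UBE2A, a RAD6 homolog that works with RAD18 on PCNA, read 8.89 and 8.73 in controls, 9.14 and 9.19 with siRNA 1, and 9.31 and 9.30 with siRNA 2. It rose by 0.49 ± 0.08 (SE, 40.8% higher, limma adjusted p = 0.0127) with siRNA 2, and with siRNA 1 it was 0.35 above control with adjusted p = 0.0527, just past the threshold. Its paralog UBE2B was at -0.20 and -0.09 with siRNA 1 and siRNA 2 (limma adjusted p = 0.236 and 0.584).

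UBE2V2, a conjugating enzyme variant without the catalytic cysteine that pairs with UBE2N, read 6.53 and 6.62 in controls, 6.47 and 6.32 with siRNA 1, and 6.03 and 6.17 with siRNA 2, a fall of 0.47 ± 0.09 (SE, limma adjusted p = 0.0232). Its paralog UBE2V1 was at 0.01 (interval -0.15 to 0.17, limma adjusted p = 0.949). UBE2L6, which conjugates the ubiquitin-like protein ISG15, read 5.76 and 5.74 in controls, 5.73 and 5.71 with siRNA 1, and 5.45 and 5.37 with siRNA 2, a fall of 0.34 ± 0.07 (SE, limma adjusted p = 0.0311). The mean of UBE2L6 with siRNA 2, 5.41, lay below the filter level. With siRNA 1, the largest differences of the class after UBE2A were those of UBE2Q2, at 0.32, and UBE2T and UBE2S, at -0.30 and -0.26 (limma adjusted p = 0.0861, 0.227 and 0.112). The next highest of the class after UBE2A with siRNA 2 was UBE2G2, at 0.13 (limma adjusted p = 0.343).

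Of the 13 calls with siRNA 2, those of FBXO11, USP14, USP37, USP46 and USP47 held on leaving out each of the 6 arrays in turn. The calls of UBE2L6, USP38 and USP42 were lost without any single array, with limma adjusted p from 0.0653 to 0.167, from 0.0729 to 0.210 and from 0.0560 to 0.141. USP53 was called only without siRNA 2 replicate 1 (0.0295) and otherwise had 0.177 and 0.0715 without control replicate 1 and 2, 0.0650 without either siRNA 1 array and 0.155 without siRNA 2 replicate 2. UBE2V2 was lost without control replicate 1 or 2 (0.0762 and 0.104) and without siRNA 2 replicate 1 or 2 (0.113 and 0.0558). USP12 was lost without control replicate 1 or 2 (0.0649 and 0.0948) or siRNA 2 replicate 1 (0.0892), and UBE2A without control replicate 2 (0.0631) or siRNA 2 replicate 1 or 2 (0.0673 and 0.0716). Fewer members were called when any control or siRNA 2 array was left out. The share of all genes called in those fits is not given, so nothing about the members is read from that. With no filter, FBXO11, USP14, USP37 and USP47 were called.

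**Figure D2:**
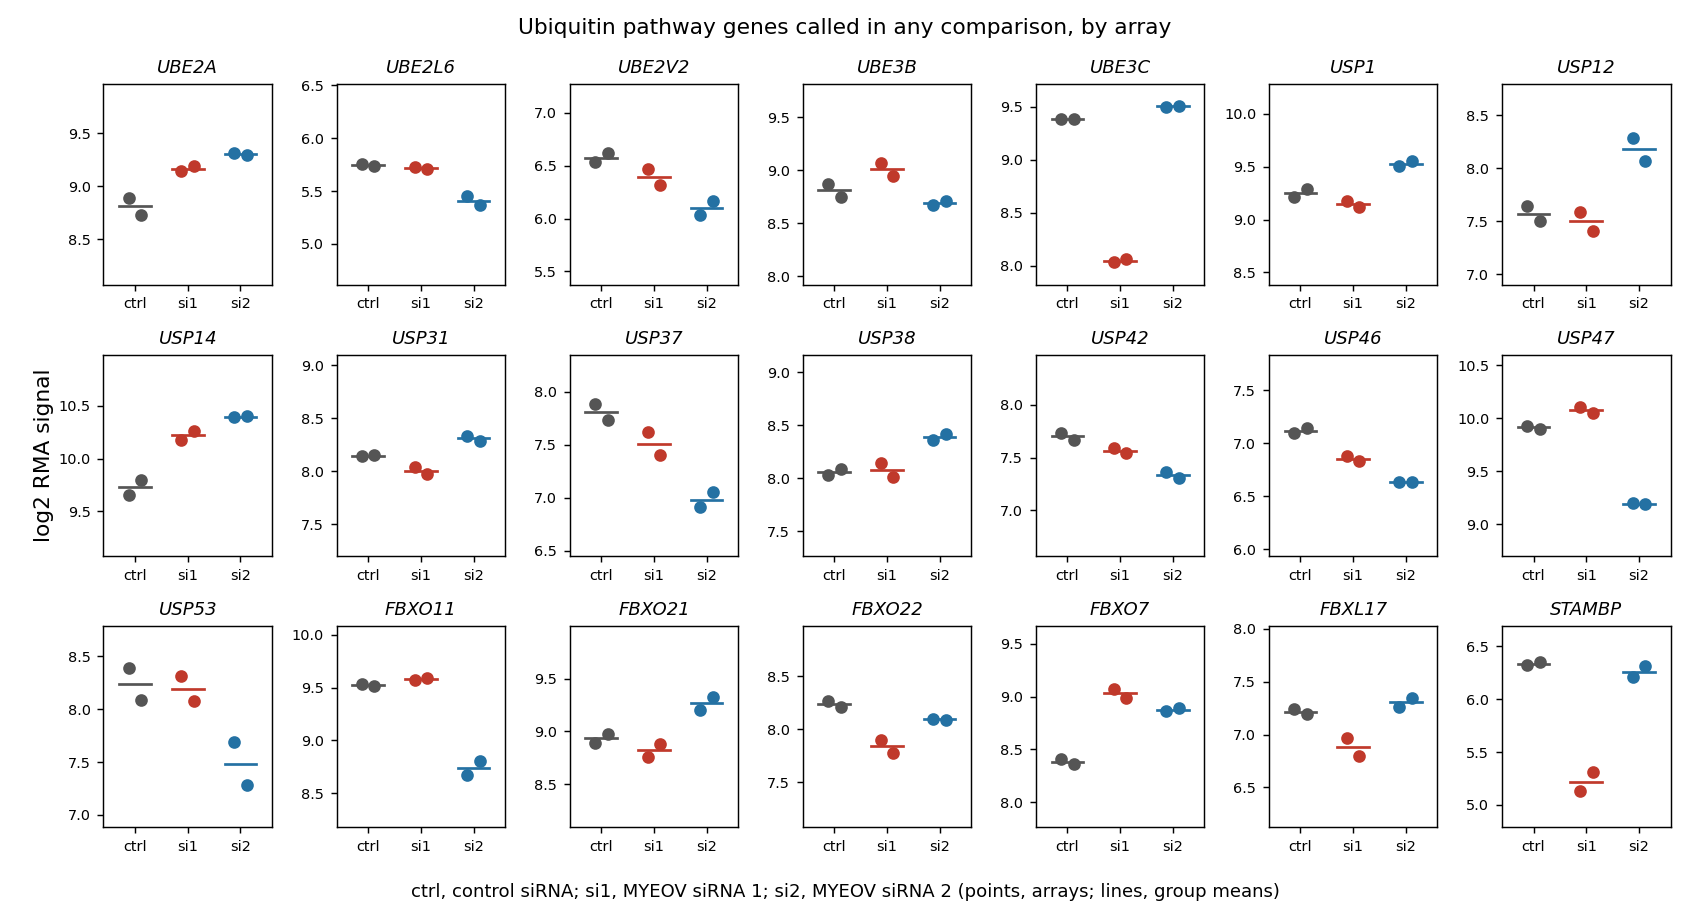
Log2 RMA signal (vertical axis, the same span of 1.9 in every panel) of the 21 members called in any of the 3 comparisons, with 1 point per array and a line at each group mean; ctrl is the control siRNA, si1 MYEOV siRNA 1 and si2 MYEOV siRNA 2. UBE3C and STAMBP are low in the siRNA 1 arrays alone, USP47 and FBXO11 in the siRNA 2 arrays alone, and FBXO7 and USP14 are high in all 4 arrays with a MYEOV siRNA.

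The direct comparison of the siRNAs asks where their effects on these genes differ. It called 14 members, and UBE3C, STAMBP, USP47 and FBXO11 were called on leaving out each of the 6 arrays and under every alternative that tested them. All these fits reuse the same arrays and add no independent support. Of the 14, 9 had also been called against control with 1 siRNA. The other 5 were not called against control and lay on opposite sides of it with each siRNA. These were USP1, USP31, UBE3B, FBXO21 and FBXL17.

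USP1 read 9.18 and 9.12 with siRNA 1, below its controls, and 9.51 and 9.55 with siRNA 2, above them (siRNA 1 minus siRNA 2 -0.38 ± 0.07 SE, limma adjusted p = 0.0192). FBXO21 read 8.76 and 8.88 with siRNA 1, 9.20 and 9.33 with siRNA 2 and 8.89 and 8.98 in controls (-0.44 ± 0.08 SE, limma adjusted p = 0.0194). FBXL17, an F-box protein that removes mispaired BTB domain dimers, read 6.97 and 6.80 with siRNA 1, 7.26 and 7.35 with siRNA 2 and 7.24 and 7.19 in controls (-0.42 ± 0.08 SE, limma adjusted p = 0.0230). The siRNA 1 and siRNA 2 arrays did not overlap for these genes, nor for USP31 and UBE3B. They were chosen by their calls in this comparison, so the separation adds nothing to those calls.

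USP31 read 8.04 and 7.97 with siRNA 1, 8.33 and 8.29 with siRNA 2 and 8.14 and 8.15 in controls (-0.30 ± 0.07 SE, limma adjusted p = 0.0379). UBE3B, given above, was higher with siRNA 1 than with siRNA 2 by 0.32 ± 0.08 (SE, limma adjusted p = 0.0490). The calls of USP31 and UBE3B were lost without each of the 6 arrays in turn (limma adjusted p from 0.0566 to 0.190 and from 0.0566 to 0.224). FBXO21 was lost without siRNA 1 replicate 1 or 2 or siRNA 2 replicate 2 (0.116, 0.0647 and 0.102), FBXL17 without siRNA 1 replicate 2 or siRNA 2 replicate 1 or 2 (0.131, 0.0697 and 0.117), and USP1 without any of the 4 arrays compared (0.0773, 0.116, 0.0789 and 0.0989). Fewer members were called without any of the 4 arrays compared, and 4 were called with no filter. The share of all genes called in those fits is not given, so nothing about the members is read from that.

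**Figure D3:**
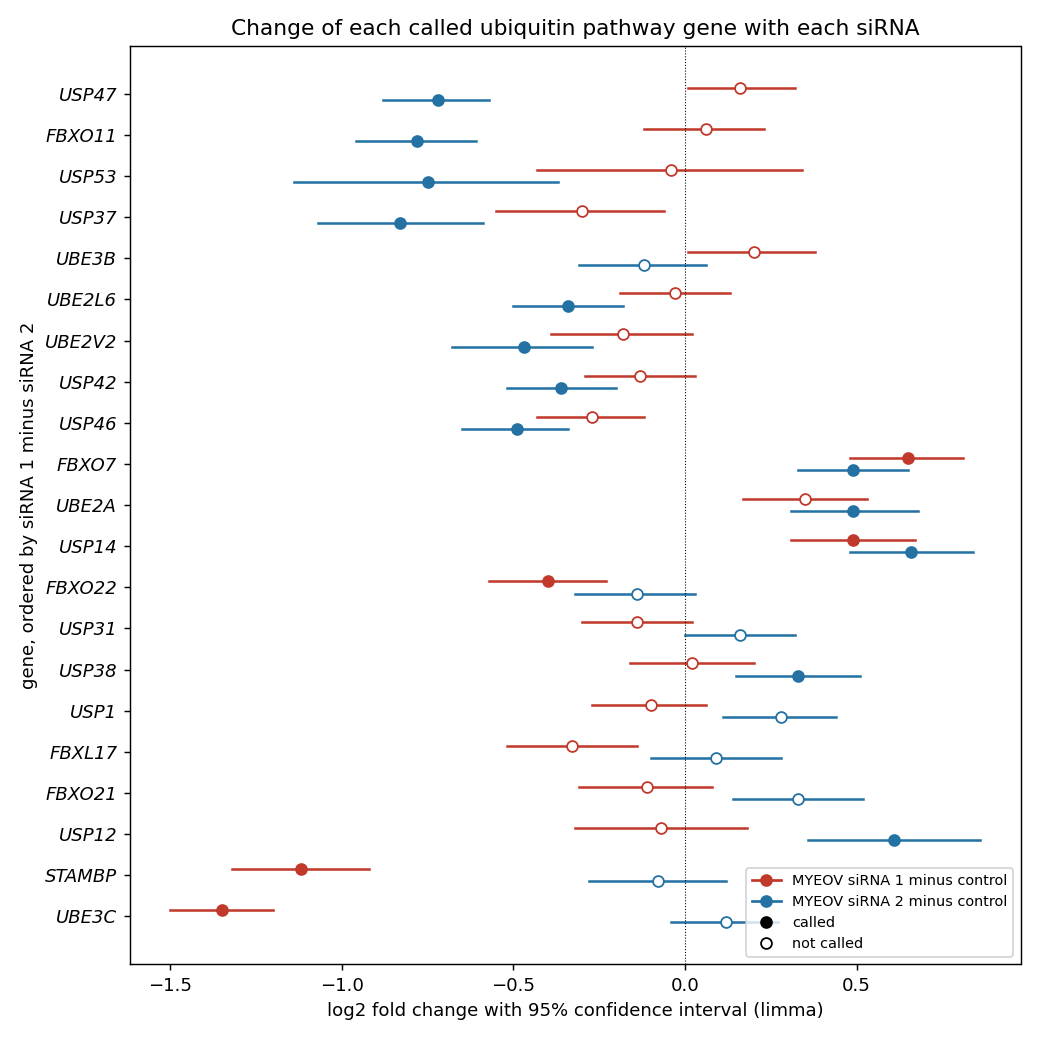
Log2 fold change against control (horizontal axis) with its 95% confidence interval for the 21 members called in any comparison (vertical axis, ordered by siRNA 1 minus siRNA 2), in red for MYEOV siRNA 1 and in blue for MYEOV siRNA 2. Filled points are called and open points are not; UBE3C and STAMBP separate the siRNAs at the bottom, USP47 and FBXO11 at the top, and FBXO7, UBE2A and USP14 lie right of 0 with both.

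The 39 members that were not tested had mean signals from 1.80 to 5.40 and comprised 8 UBE2, 1 UBE3, 17 USP, 8 FBXO and 5 FBXL genes. With no filter, limma called 0 of them in any of the 3 comparisons (lowest adjusted p 0.158 for siRNA 1, 0.104 for siRNA 2 and 0.247 between them), while 5, 3 and 5 had an unadjusted p under 0.05. The shares of all genes in that fit are not given, so nothing is read from these counts. Their lowest and highest differences were those of USP17L10 and USP2 with siRNA 1, at -0.81 and 0.58, and of UBE2Q2P1 and USP6 with siRNA 2, at -0.67 and 0.50. FBXL18, FBXO22, USP2 and USP17L9P each had 2 rows, and 1 row of USP17L9P held the same values as USP17L12 in every array. The multicopy USP17L genes, the USP32P1, UBE2Q2P1 and UBE2MP1 pseudogenes and their parent genes can share probes, so their signals cannot be assigned to 1 locus.

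Elsewhere in the pathway, 9 lists of 155 genes outside the rule gave 80 tested genes. Limma called 1 higher and 3 lower with siRNA 1, 1 higher and 4 lower with siRNA 2, and 7 higher and 2 lower for siRNA 1 against siRNA 2, while 4.66%, 6.83% and 9.15% of all genes tested were called. The genes below are given as values, and nothing is read from their number. The COP9 signalosome, which removes the ubiquitin-like NEDD8 from cullins, had 3 of its 9 tested subunits called with siRNA 2, against 6.83% of all genes. COPS2 fell by 1.00 ± 0.08 (SE, limma adjusted p = 0.000700), reading 9.50 and 9.35 against 10.42 and 10.41 in controls, COPS7A fell by 0.43 ± 0.08, and COPS4 rose by 0.47 ± 0.07. The list's median with siRNA 2 was 0.03, and the called subunits moved in both directions.

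Of 10 tested cullin-RING scaffold genes, CUL5 alone was called with siRNA 2, at -0.46 ± 0.07 (SE, limma adjusted p = 0.0143), and 0 with siRNA 1 (list medians 0.00 and 0.00). Of 12 F-box genes outside the rule, LMO7 alone was called, at -0.79 ± 0.10 with siRNA 2 (SE, limma adjusted p = 0.00423). Of 5 tested partners of STAMBP at endosomes, CHMP1B, an ESCRT-III subunit to which STAMBP binds, fell by 0.82 ± 0.09 with siRNA 1 (SE, limma adjusted p = 0.00459) and read 8.56 and 8.33 against 9.28 and 9.24 in controls and 9.22 and 9.24 with siRNA 2. Of 7 tested activating enzymes, which include those of ubiquitin-like proteins, UBA6 fell by 0.32 ± 0.07 with siRNA 1 (SE, limma adjusted p = 0.0482).

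Of 17 other tested HECT ligases, ITCH fell by 0.39 ± 0.08 and HERC6 rose by 0.32 ± 0.07 with siRNA 1 (SE, limma adjusted p = 0.0472 and 0.0449), and HERC6 and HECTD2 were higher with siRNA 1 than with siRNA 2 by 0.46 and 0.32 (limma adjusted p = 0.00741 and 0.0332). Of 18 other deubiquitinases, 0 were called by limma against control and ATXN3, a deubiquitinase with a polyglutamine tract, was higher with siRNA 1 than with siRNA 2 by 0.52 ± 0.09 (SE, limma adjusted p = 0.0130). The ubiquitin genes and the proteasome subunits had 1 tested gene each, with no call. The calls of COPS2 and LMO7 with siRNA 2 and of CHMP1B with siRNA 1 held without each array. Those of UBA6, ITCH and HERC6 with siRNA 1 were lost without any single array (limma adjusted p from 0.0834 to 0.230, 0.0729 to 0.224 and 0.0807 to 0.222). CUL5 and COPS7A with siRNA 2 were lost without either control array or either siRNA 2 array (0.0527 to 0.0929 and 0.0650 to 0.132), and COPS4 without control replicate 1 or either siRNA 2 array (0.0649 to 0.0714). Between the siRNAs, HECTD2 was lost without any of the 4 arrays compared (0.125 to 0.162), ATXN3 without siRNA 1 replicate 2 or siRNA 2 replicate 2 (0.0927 and 0.0680) and HERC6 without siRNA 1 replicate 2 (0.0630). In the same comparison UBA6 (0.0602 to 0.199), CUL5 (0.0528 without siRNA 1 replicate 1) and COPS7A (0.0772 and 0.0666 without siRNA 1 or siRNA 2 replicate 2) lost their calls as well.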

How the data were processed

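The authors deposited log2 values. Their processing notes name RMA without a version, a method that subtracts background, quantile-normalizes arrays, summarises probes and compresses differences of dim transcripts. Array medians lay between 4.08 and 4.10, and nothing further was normalized. Of 53617 rows, 16098 had exactly 1 gene symbol in the platform annotation; the rest are unnamed here. Genes with several rows were represented by the row with the highest mean. Limma 3.58.1 in R 4.3.3 (lmFit, eBayes) was fitted over all 6 arrays in 3 groups (3 residual and 4.09 prior degrees of freedom), with Benjamini-Hochberg adjustment over 7442 genes. On simulated data for siRNA 1 against control over 7442 genes, the fit recovered 65.6% of log2 changes of 0.5 and 97.4% of log2 changes of 1, and 5.05% of its calls were false. The simulated noise was independent between arrays and drawn from limma's own fitted prior, with 200 changed genes. These figures therefore check the code and do not give the error rate of the real arrays. Figures were drawn with matplotlib 3.10.9.

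Members, gene lists and named genes were chosen with earlier results of these data known, so no count is independent support. Named were UBE3C, STAMBP and their paralogs, every called member, the 2 largest changes per direction in a class, members with several rows, and called list genes; levels were not ranked across genes, since signals of different probes are not comparable. Precision is limited by 2 arrays per group. Alternatives were other filters, every row, averaged rows, quantile normalization, median centring, fits of 2 groups, the replicate block, a trended robust prior, array weights and each array left out.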

Additional observations from a re-analysis of the deposited data

Results flagged for a closer look

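The effects of the siRNAs differed, by limma's direct test of siRNA 1 minus siRNA 2, for 14 members, 6 higher and 8 lower with siRNA 1. Against a background of 9.15% of all genes tested, this was 15.4% of the members. On the log2 scale the difference was -1.46 for UBE3C and -1.04 for STAMBP, which were called against control with siRNA 1 alone. It was 0.88 for USP47, 0.84 for FBXO11, 0.71 for USP53, 0.53 for USP37 and 0.31 for UBE2L6, which were called lower with siRNA 2 alone (USP37 was at -0.30 with siRNA 1, limma adjusted p = 0.162). It was -0.68 for USP12 and -0.31 for USP38, which were called higher with siRNA 2 alone. For the genes called in neither control comparison it was -0.44 for FBXO21, -0.42 for FBXL17, -0.38 for USP1, -0.30 for USP31 and 0.32 for UBE3B. The calls of USP12, USP37 and USP53 were lost without at least 1 of the siRNA arrays (highest limma adjusted p = 0.0752, 0.124 and 0.190), and those of UBE2L6 and USP38 without each of the 6 arrays (0.0506 to 0.162 and 0.0662 to 0.224).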

How the results depend on the processing

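With no filter on dim genes all 130 members were tested, and those called numbered 2 for siRNA 1, 4 for siRNA 2 and 4 between the siRNAs. For siRNA 1, 10 of 57 tested members were called with the filter at the 75th percentile and 8 of 91 with the trended robust prior. Leaving out 1 array gave 3 to 4 calls for siRNA 1, 5 to 9 for siRNA 2 and 5 to 11 between the siRNAs. The cause was not tested, but a fit without an array has fewer residual degrees of freedom. All other settings kept these counts within 1.5 times. The share of all genes called is not given for any alternative setting, here or above, so nothing about the members is read from these counts. No call of a named member changed direction under any alternative.

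The replicate numbers are not said to mark a shared batch. Deviations of same-numbered arrays correlated at 0.265, 0.205 and 0.251 between the groups. With the replicate block 5, 15 and 18 members were called, and the share of all genes is not given there either. USP53, whose replicate 1 was the higher in every group, had adjusted p = 0.00341 for siRNA 2 with the block in limma.

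Class medians moved by more than the spread between arrays in these cases. With siRNA 1 the UBE2 median was -0.09 with the 75th percentile filter and -0.03 with quantile normalization, the USP median -0.01 under both, and the FBXO median -0.17 with that filter. With siRNA 2 the UBE2 median was 0.01 under both, the FBXO median -0.14 with that filter and the FBXL median 0.00 with it and with no filter. Between the siRNAs the USP median was -0.03 and the FBXO median -0.09 with that filter, and the FBXO median -0.02 with no filter. Leaving out 1 array in turn, the siRNA 1 medians ran from -0.07 to -0.04 for UBE2, -0.04 to -0.01 for USP, -0.04 to 0.04 for FBXO and -0.08 to 0.04 for FBXL. The siRNA 2 medians ran from -0.03 to 0.00, -0.04 to 0.02, -0.09 to 0.01 and -0.11 to 0.00. Between the siRNAs they ran from -0.03 to 0.01 for USP and -0.08 to 0.03 for FBXO.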
